A study of Mus musculus with 7 samples.

Results

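The genes described here encode the protein scaffold around cells and the enzymes that cut it: collagens, laminins, their linker proteins, matrix metalloproteases (MMPs), ADAMTS proteases and the TIMP inhibitors of metalloproteases. They were chosen by name. Every measured gene whose symbol is Col, a number, a and a number was taken, likewise Lama, Lamb or Lamc, Mmp or Adamts with a number, and Nid1, Nid2, Hspg2, Fn1, Sparc, Agrn, Timp2, Timp3 and Timp4 were added by name. The rule found 83 of the 17422 genes measured, and another 21 annotated genes that fit it were not analysed here. By class these were 11 fibrillar collagens, 8 fibril-associated collagens, 5 basement membrane and network-forming collagens, 7 collagens of the collagen VI group and related ones, 4 transmembrane collagens and multiplexins, and 9 laminin chains. A further 6 were linker and matricellular proteins, 9 were secreted and 5 membrane-type MMPs, 16 were ADAMTS proteases and 3 were TIMPs.

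RNA had been sequenced from mouse cells sorted for the red fluorescent protein DsRed. 3 independent high-grade gliomas were labelled PDGF-B, which stands for a growth factor that activates the platelet-derived growth factor receptors, and their genotype was wild type. Another 3 were labelled EGFRvIII, a truncated and permanently active epidermal growth factor receptor, and their genotype was Ink/Arf -/-, which lacks the tumour suppressors encoded by Cdkn2a. A single culture of wild-type neural progenitors transduced with PDGF-B had not been grafted. All 7 libraries came from Balb/c embryonic neural precursors taken at embryonic day 14 and given retroviral vectors for the oncogene and DsRed. The precursors were plated on Matrigel, a basement membrane extract, with bFGF and EGF at 10 ng/ml, and gliomas formed after 20000 cells had been grafted into the brains of adult mice. The glioma groups differ in genotype as well as in oncogene, and the part of each cannot be told apart. The sort for DsRed was meant to keep grafted cells.

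Basement membranes are thin sheets that separate vessels, the brain surface and other compartments from neighbouring tissue. Laminin trimers, each of an alpha, a beta and a gamma chain, and a network of collagen IV form their layers, which nidogens and the proteoglycan perlecan hold together. Brain tissue holds little fibrillar collagen outside its vessels and meninges, and glioma cells move through a matrix rich in proteoglycans and along vessel walls. MMPs and ADAMTS enzymes are zinc proteases that cut collagens, laminins and proteoglycans, and TIMPs block them.

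Depth ranged from 32513754 to 39062584 reads per library. Transcripts of the driver genes contradicted the labels of the 6 gliomas. Egfr stood at 4952, 5109 and 3594 CPM (counts scaled to a common library size) in PDGF-B-labelled gliomas, at 41.2, 26.9 and 25.6 CPM in EGFRvIII-labelled gliomas and at 282 CPM in the culture. Pdgfb, in turn, had 1.95, 2.97 and 4.88 CPM in PDGF-B-labelled gliomas, 386, 284 and 277 CPM in EGFRvIII-labelled gliomas and 245 CPM in the culture. Cdkn2a, the locus of the labelled deletion, had 3.52, 2.94 and 4.99 CPM in PDGF-B-labelled gliomas, 22.7, 26.1 and 11.1 CPM in EGFRvIII-labelled gliomas and 10.7 CPM in the culture, and the sources do not state which exons that deletion takes out. Groups are therefore named by their labels throughout. In a principal component analysis of the 6 gliomas, the leading axis placed replicate 3 labelled PDGF-B (-5.77) between its own group's replicates 1 (-89.3) and 2 (-88.7) and the EGFRvIII-labelled gliomas (37.2 to 102). Summed CPM of 16 microglia and macrophage markers was 486, 651 and 1984 in PDGF-B-labelled gliomas, 7766, 16025 and 7318 in EGFRvIII-labelled gliomas and 22.5 in the culture. Markers of the oligodendrocyte lineage summed to 8973, 12010.0 and 6186 CPM in PDGF-B-labelled gliomas, 4706, 5241 and 5303 CPM in EGFRvIII-labelled gliomas and 1996 CPM in the culture. Those of neural progenitors summed to 1087, 871 and 2340.1 CPM in PDGF-B-labelled gliomas, 1662, 2459.5 and 1616 CPM in EGFRvIII-labelled gliomas and 7694 CPM in the culture. Fewer cells of a type and less RNA per cell cannot be told apart in such bulk samples.

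Col4a1 (ENSMUSG00000031502, chr8:11198423-11312826, GRCm38, minus strand) and Col4a2 (ENSMUSG00000031503, chr8:11312805-11449287, plus strand) encode the alpha chains that form the common collagen IV trimer. These neighbours are transcribed away from each other, and their annotated starts overlap by 22 bases. Their 300-base promoter windows, 250 bases before to 50 after each start, are shown because both genes differed together in every comparison and share 78 bases of this sequence. The letters are those of RefSeq on GRCm38.p6, each on the strand of its gene, and capitals mark the shared bases, which the neighbouring gene reads on the opposite strand. The Col4a1 window is chr8:11312777-11313076 and the Col4a2 window chr8:11312555-11312854.
Col4a1: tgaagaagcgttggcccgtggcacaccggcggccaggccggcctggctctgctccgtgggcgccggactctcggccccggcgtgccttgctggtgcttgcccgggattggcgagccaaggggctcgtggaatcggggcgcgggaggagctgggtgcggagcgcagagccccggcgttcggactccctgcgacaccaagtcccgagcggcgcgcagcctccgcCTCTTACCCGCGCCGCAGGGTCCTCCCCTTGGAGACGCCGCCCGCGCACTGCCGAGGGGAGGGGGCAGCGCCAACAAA
Col4a2: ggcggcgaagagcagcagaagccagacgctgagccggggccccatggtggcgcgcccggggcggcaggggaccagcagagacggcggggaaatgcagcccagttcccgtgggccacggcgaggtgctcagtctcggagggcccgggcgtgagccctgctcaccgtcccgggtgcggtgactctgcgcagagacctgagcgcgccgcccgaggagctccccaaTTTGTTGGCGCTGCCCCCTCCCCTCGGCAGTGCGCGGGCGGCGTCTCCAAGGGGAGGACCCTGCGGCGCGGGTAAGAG
These windows were rich in G and C, at 74.0% for Col4a1 and 73.7% for Col4a2, against a median of 52.7% over 32851 mouse promoter windows. The GC box GGGCGG, searched on both strands, occurred in 1 place in the Col4a1 window and in 3 in the Col4a2 window, and 35.7% of all windows hold it. CCAAT occurred in 1 place in each, as it does at least once in 37.4% of windows. TATAAA, held by 13.6% of windows, was in neither. These matches describe the letters of the windows.

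Most of the matrix genes were detected. Of the 83, 47 reached 1 CPM in all 7 libraries, 23 reached 10 CPM in all of them and 3 were below 1 CPM in each. Their summed share of all CPM was 0.570% to 0.727% in each glioma, against 0.326% in the culture. On a scale that allows genes to be compared, CPM per kilobase of exon, Mmp15 led with a mean of 335.5 over the 7 libraries. It encodes a membrane-anchored MMP and alone held 22.7% to 35.3% of the matrix genes' CPM in each glioma, against 14.7% in the culture. Sparc, a secreted collagen-binding glycoprotein, followed at 124 CPM per kb, then Timp2 at 55.4, Col16a1 at 49.4, fibronectin (Fn1) at 39.7, agrin (Agrn) at 38.4 and Col11a1 at 34.0 CPM per kb. The classical collagens of connective tissue were low: Col1a1, Col1a2 and Col3a1 together summed to 0.932, 1.73 and 5.49 CPM in PDGF-B-labelled gliomas, to 5.36, 3.17 and 16.6 CPM in EGFRvIII-labelled gliomas and to 2.75 CPM in the culture.

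**Figure D1:**
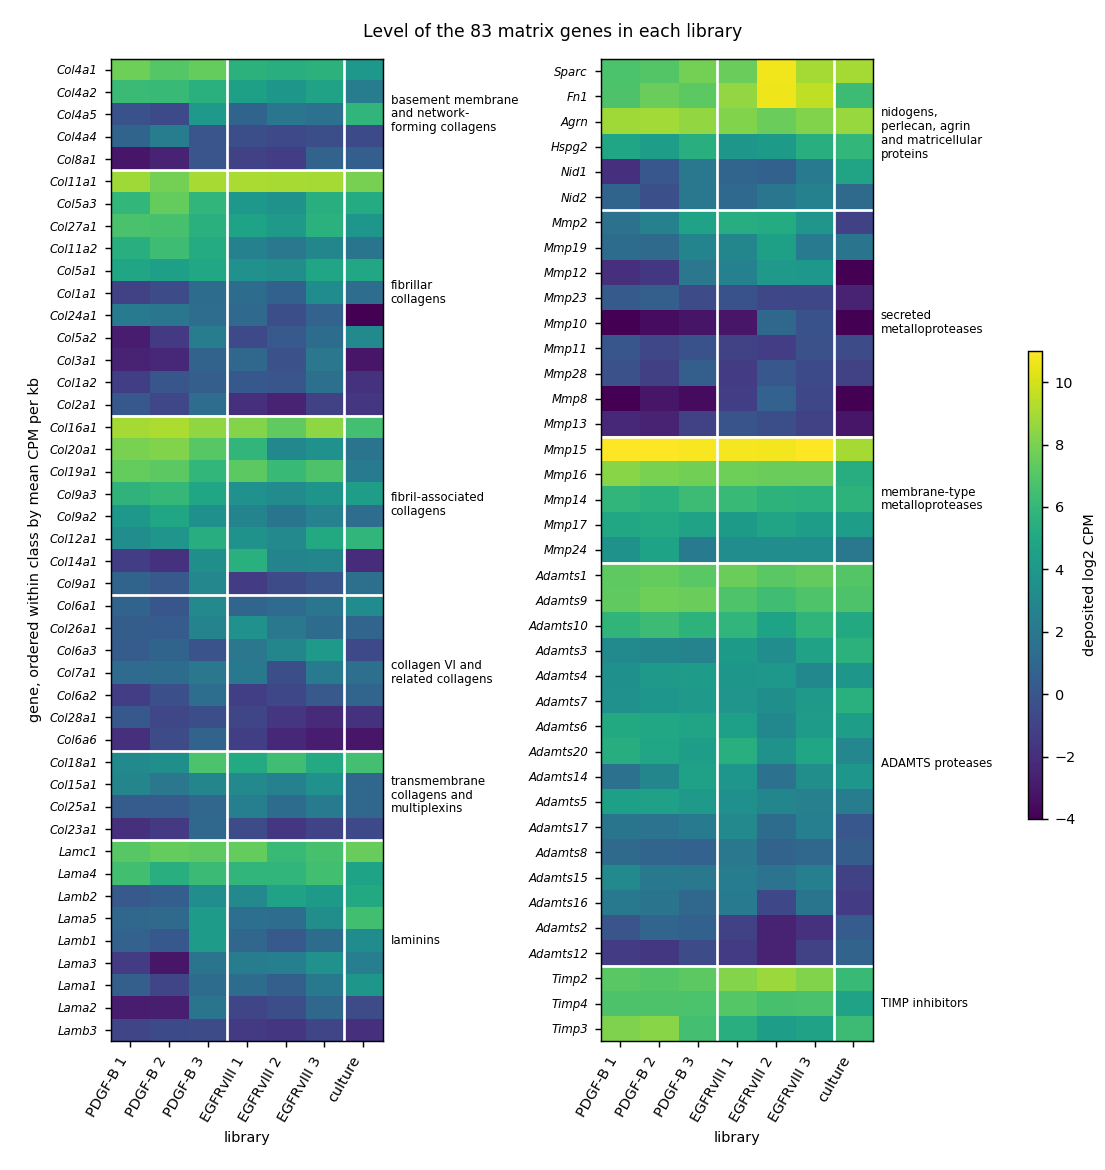
Each row is a matrix gene and each column a library, with the colour giving the deposited log2 CPM on a scale from -4 to 11. Genes are grouped by class and ordered within it by mean CPM per kb. Rows of Mmp15, Agrn, Col11a1 and Adamts1 stay bright across all 7 libraries, Col4a1 and Col4a2 dim step by step from the left group to the culture, and replicate 3 labelled PDGF-B is brighter than its group in several laminin rows.

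Between the glioma groups, 7 of the 83 genes passed the test. In PDGF-B-labelled gliomas 6 of them were higher and 1 was lower. Those higher were Col4a1, Col4a2, Col9a3, Col11a2, Col20a1 and Timp3, and the gene lower was Timp2. The test was limma's on the deposited log2 CPM, with p-values adjusted over all 17422 genes and called at 0.05. Of all genes, 3.35% were called (0.717% higher and 2.63% lower), so the matrix genes' split runs the other way from that of all genes. The median log2 fold change of the 83 was 0.18, against -0.00015 for all genes. In 31 of the 83 the groups did not overlap, 21 with higher and 10 with lower values in PDGF-B-labelled gliomas. Of all genes, 22.9% did not overlap, 10.3% higher and 12.6% lower. An unadjusted p under 0.05 was reached by 33 of the 83, against 16.7% of all genes. The calls rested on the full set of 6 libraries: none of the 83 was called without replicate 1 or 2 labelled PDGF-B or replicate 2 or 3 labelled EGFRvIII, 1 (Col20a1) without replicate 1 labelled EGFRvIII, and 17 (9 higher and 8 lower) without replicate 3 labelled PDGF-B, the library that stood apart. All genes moved alike: in that order the fits called 4, 7, 15, 7, 21 and 1282 of the 17422, against 583 with all 6 gliomas. Calls over all genes against the culture also rose without replicate 3 labelled PDGF-B. That library was singled out from these same data, so calls given below without it are no separate support.

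**Figure D2:**
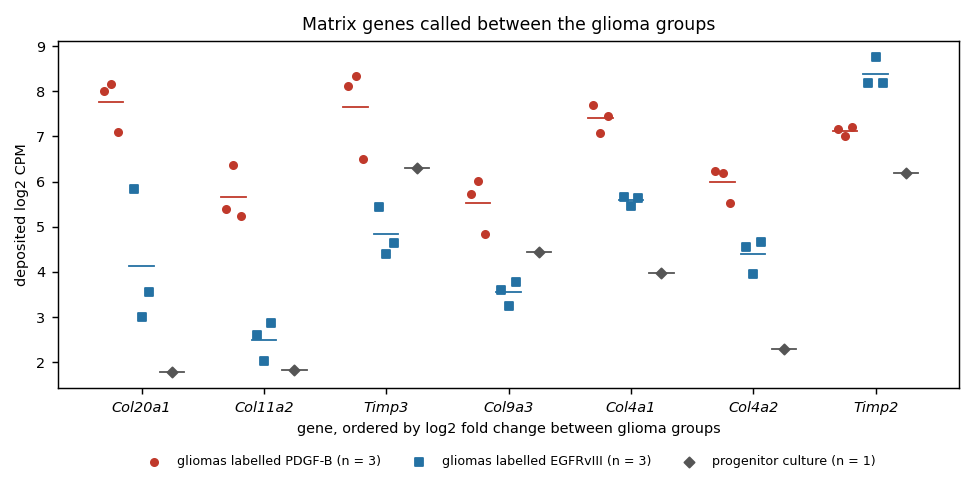
The y axis gives the deposited log2 CPM of the 7 genes called between the glioma groups, with a point per library and a short line at each group's mean. For every gene the 3 libraries labelled PDGF-B lie clear of the 3 labelled EGFRvIII, above them in 6 genes and below in Timp2. The single culture library lies lowest for Col20a1, Col11a2, Col4a1, Col4a2 and Timp2.

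Against the culture, which has no replicate and is assumed in the fit to vary like the gliomas, the PDGF-B-labelled gliomas had 13 of the 83 genes called higher and 2 lower. Of all genes, 9.45% were called there (7.73% higher and 1.73% lower), and 33 of the 83 against 27.2% of all genes reached an unadjusted p under 0.05. For the EGFRvIII-labelled gliomas, 13 were called higher and 1 lower than in the culture, where 9.55% of all genes were called (8.20% higher and 1.34% lower). An unadjusted p under 0.05 was reached there by 34 of the 83 and by 23.9% of all genes. The median log2 fold changes of the 83 genes were 0.68 and 0.42, against 0.04 and 0.01 for all genes. Both comparisons use the same culture library. 

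**Figure D3:**
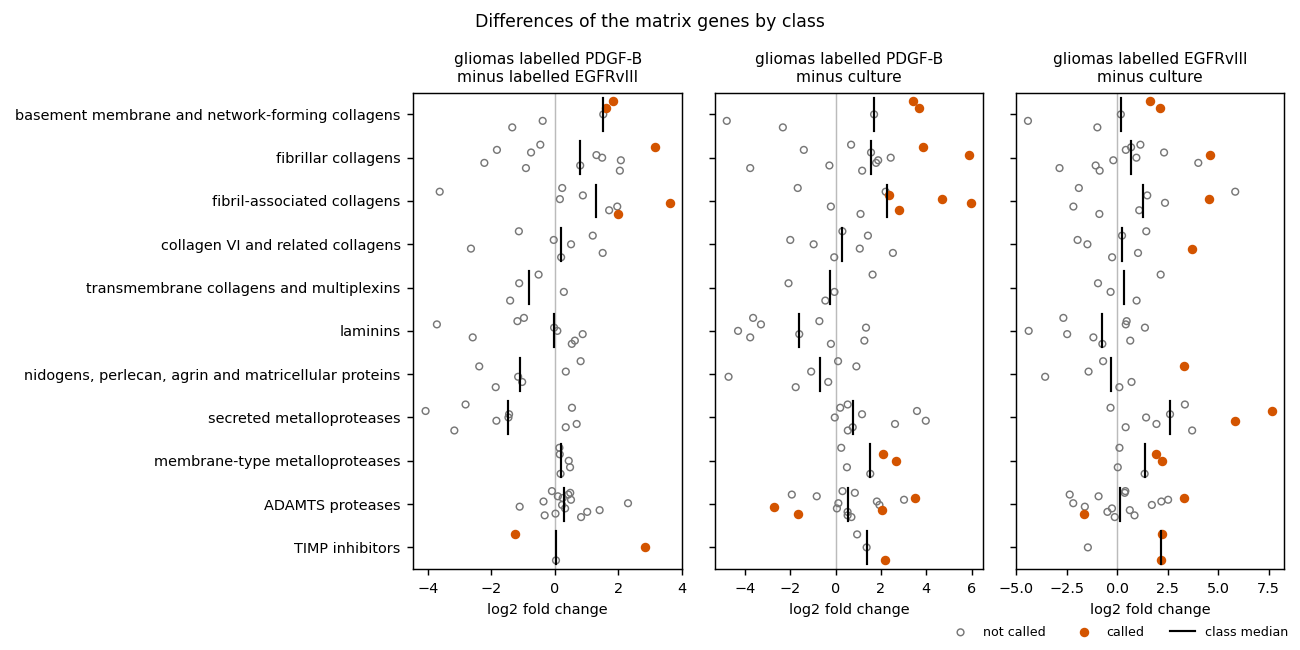
Each point is a gene placed by class on the y axis and by log2 fold change on the x axis, with a panel for each comparison, filled where called, and a black line at the class median. Between the glioma groups the called genes are collagens and TIMPs. Against the culture they include proteases as well, and Fn1 of the linker and matricellular class for EGFRvIII. None of the laminins is called in any panel. The median of the laminins lies at -1.61 and -0.74 in the panels against the culture.

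The common collagen IV pair was higher in both glioma groups than in the culture and higher in the PDGF-B group than in the EGFRvIII group. Col4a1 had 208, 134 and 175 CPM in PDGF-B-labelled gliomas, 50.6, 44.1 and 49.6 CPM in EGFRvIII-labelled gliomas and 15.6 CPM in the culture. It averaged 173 ± 37.2 CPM in the PDGF-B group and 48.1 ± 3.48 CPM in the EGFRvIII group (SD, n = 3 each). Every glioma was above the culture and the glioma groups did not overlap. The log2 fold change was 1.82 ± 0.20 between the glioma groups (SE, limma adjusted p = 0.0207), 3.44 ± 0.29 for PDGF-B against the culture (adjusted p = 0.00157) and 1.62 ± 0.29 for EGFRvIII against the culture (adjusted p = 0.0137). Its partner Col4a2 followed the same order, with 75.3, 72.5 and 46.1 CPM in PDGF-B-labelled gliomas, 23.3, 15.3 and 25.4 CPM in EGFRvIII-labelled gliomas and 4.8 CPM in the culture. Here too the groups were separate, with log2 fold changes of 1.59 ± 0.28, 3.70 ± 0.40 and 2.11 ± 0.40 in the same 3 comparisons (SE, limma adjusted p = 0.0327, 0.00319 and 0.0187). Per kilobase, Col4a1 exceeded Col4a2 in each library, by 2.45, 1.64 and 3.37 times in PDGF-B-labelled gliomas, 1.92, 2.55 and 1.73 times in EGFRvIII-labelled gliomas and 2.88 times in the culture. Against the culture, both calls held in the PDGF-B group under every alternative tried, and so did that of Col4a1 in the EGFRvIII group. The EGFRvIII call of Col4a2 was lost without replicate 1 or 3 of that group, with quantile normalization and with voom (weights from recovered reads), and its limma adjusted p ranged from 0.0115 to 0.0988. Between the glioma groups their limma adjusted p ranged from 0.00767 to 0.0894 for Col4a1 and from 0.0111 to 0.132 for Col4a2 over the alternatives.

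The other collagen IV chains did not follow this pair. Col4a5, a chain of specialised basement membranes, had 0.786, 0.576 and 17 CPM in PDGF-B-labelled gliomas, 1.75, 3.71 and 2.94 CPM in EGFRvIII-labelled gliomas and 58.6 CPM in the culture. Its level was highest in the culture and, among gliomas, in replicate 3 labelled PDGF-B, and no comparison passed the test (limma adjusted p = 0.881 between glioma groups, 0.119 and 0.159 against the culture). Without that replicate Col4a5 was called lower than the culture in both glioma groups (-6.33 ± 0.60, limma adjusted p = 0.00179 for PDGF-B, and -4.42 ± 0.57, limma adjusted p = 0.00374 for EGFRvIII). Col4a4 stayed at or below 5.12 CPM and the short-chain network collagen Col8a1 at or below 1.64 CPM in every library. Col4a4, Col4a5 and Col8a1 complete the class and were not called. 

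Endothelial cells and mural cells are the textbook sources of vascular collagen IV. The 8 measured endothelial markers, among them Pecam1, Cdh5 and Kdr, summed to 11.1, 13.9 and 20.6 CPM in PDGF-B-labelled gliomas, to 21.8, 26.9 and 35 CPM in EGFRvIII-labelled gliomas and to 29.5 CPM in the culture. Between the glioma groups none of the 8 was called by limma or voom, 5 reached an unadjusted p under 0.05 and 5 had lower values in PDGF-B-labelled gliomas without overlap, with a median log2 fold change of -1.51. Against the culture, limma called 1 of the 8 higher in the PDGF-B group and 4 higher in the EGFRvIII group. It called 9.45% and 9.55% of all genes there. The median log2 fold changes of the 8 were 1.82 and 2.83, and the lowest were -2.53 and -1.71. In the PDGF-B and EGFRvIII groups 6 and 7 of the 8 lay above the culture in every glioma, as did 7131 and 5934 of all 17422 genes. The culture's sum therefore does not follow most of these markers. In the culture 3 of the 8 were at 0. Mural markers other than Cspg4, which oligodendrocyte progenitors also express, summed to 15.4, 7.94 and 16.2 CPM in PDGF-B-labelled gliomas, 12.9, 21.1 and 31.4 CPM in EGFRvIII-labelled gliomas and 21.3 CPM in the culture, and the glioma groups overlapped. Of the 9 mural markers with Cspg4, limma called 0 between the glioma groups. It called 4 higher and 1 lower in the PDGF-B group than in the culture, and 3 higher in the EGFRvIII group. Against the culture these are 55.6% and 33.3% of the 9, beside 9.45% and 9.55% of all genes. The part of both cell types in the collagen IV values was not tested.

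Fibril-associated collagens bind the surface of larger fibrils. In PDGF-B-labelled gliomas 2 of the 8 were called higher and none lower than in EGFRvIII-labelled gliomas, with a class median of 1.29 on the log2 scale. Col20a1 (ENSMUSG00000016356) had 256, 285 and 137 CPM in PDGF-B-labelled gliomas, 57.4, 7.96 and 11.7 CPM in EGFRvIII-labelled gliomas and 3.37 CPM in the culture. The lowest PDGF-B glioma was above the highest EGFRvIII glioma, and replicate 1 of the EGFRvIII group stood above its other two. Its log2 fold change was 3.62 ± 0.70 between glioma groups (SE, limma adjusted p = 0.0418) and 5.98 ± 0.99 for PDGF-B against the culture (adjusted p = 0.0126), while EGFRvIII against the culture gave 2.36 ± 0.99 and was not called (adjusted p = 0.203). With voom the call of PDGF-B against the culture was lost (limma adjusted p = 0.0684). Collagen IX, a trimer of 3 different chains best known from cartilage, showed the same direction in the chain called. Col9a3 had 52.9, 64.7 and 28.7 CPM in PDGF-B-labelled gliomas, 12, 9.48 and 13.7 CPM in EGFRvIII-labelled gliomas and 21.5 CPM in the culture. The groups were separate (log2 fold change 1.99 ± 0.33, SE, limma adjusted p = 0.0312), with the culture between them and called different from neither. Between the glioma groups the limma adjusted p ranged from 0.0231 to 0.159 for Col20a1 and from 0.00382 to 0.13 for Col9a3 over the alternatives. Its partner Col9a2 had 16.1, 28 and 11.6 CPM in PDGF-B-labelled gliomas, 6.65, 3.5 and 6.32 CPM in EGFRvIII-labelled gliomas and 2.46 CPM in the culture. The log2 difference of 1.71 between the glioma groups missed the threshold (limma adjusted p = 0.0771), and that of 2.79 for PDGF-B against the culture passed it (limma adjusted p = 0.0293), though not without replicate 1 or 2 labelled PDGF-B or replicate 3 labelled EGFRvIII, with quantile normalization or with voom (up to 0.090). The third chain, Col9a1, had 1.69, 1.09 and 7.7 CPM in PDGF-B-labelled gliomas, 0.344, 0.628 and 0.899 CPM in EGFRvIII-labelled gliomas and 2.84 CPM in the culture, and was not called.

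Col16a1 and Col19a1 were abundant in every glioma. Col16a1 had 512, 564 and 359 CPM in PDGF-B-labelled gliomas, 302, 159.9 and 346 CPM in EGFRvIII-labelled gliomas and 91.4 CPM in the culture. All 6 gliomas were above the culture, and the call was made for the PDGF-B group (log2 fold change 2.36 ± 0.47, SE, limma adjusted p = 0.0239) but not the EGFRvIII group (1.48 ± 0.47, adjusted p = 0.101). The PDGF-B call was lost without replicate 1 or 2 of that group, and its limma adjusted p ranged from 0.0134 to 0.0672 over the alternatives. Col19a1, first studied in muscle and brain development, had 176, 148 and 61.4 CPM in PDGF-B-labelled gliomas, 152, 67.9 and 113 CPM in EGFRvIII-labelled gliomas and 4.43 CPM in the culture. The glioma groups overlapped, and both were above the culture, by 4.71 ± 0.64 for PDGF-B and 4.55 ± 0.64 for EGFRvIII (log2, SE, limma adjusted p = 0.00642 and 0.00517). Both calls of Col19a1 were lost with voom (limma adjusted p = 0.0589 and 0.0582). Of the class, Col12a1 and Col14a1 were not called. Col14a1 ranged widely, from 0.212 to 11.04 CPM in PDGF-B-labelled gliomas and from 6.64 to 46.2 CPM in EGFRvIII-labelled gliomas, with 0.174 CPM in the culture.

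Among the fibrillar collagens Col11a2 alone was called between the glioma groups. It had 41.6, 82.4 and 37.5 CPM in PDGF-B-labelled gliomas, 6.05, 4.01 and 7.25 CPM in EGFRvIII-labelled gliomas and 3.47 CPM in the culture. The PDGF-B group stood clear of both others, with log2 fold changes of 3.16 ± 0.37 against EGFRvIII (SE, limma adjusted p = 0.0238) and 3.84 ± 0.53 against the culture (adjusted p = 0.00676), and the call against the culture held under all alternatives. The limma adjusted p between glioma groups ranged from 0.00476 to 0.0905 over the alternatives. Its usual partner in collagen XI, Col11a1, was more abundant per kilobase and did not share the difference: it had 457, 235 and 519 CPM in PDGF-B-labelled gliomas, 554, 524 and 503 CPM in EGFRvIII-labelled gliomas and 238 CPM in the culture (log2 fold change between glioma groups -0.46 ± 0.31, SE, limma adjusted p = 0.495). Per kilobase Col11a1 thus averaged 31.7 against 7.84 for Col11a2 in the PDGF-B group, and 41.4 against 0.839 in the EGFRvIII group. Col24a1, a minor fibrillar collagen, had 4.31, 3.7 and 2.49 CPM in PDGF-B-labelled gliomas and 2.12, 0.717 and 1.58 CPM in EGFRvIII-labelled gliomas, and no read in the culture. With 3 counts (0.0868 CPM) as the limit for the culture, the PDGF-B group was at least 40.3-fold and the EGFRvIII group at least 17-fold higher, and limma called both (adjusted p = 0.0041 and 0.00732). The EGFRvIII call was lost with log2(CPM + 1) and with voom, at a limma adjusted p of up to 0.119. Markers of fibroblasts and meninges, the main makers of fibrillar collagen near the brain, summed to 130.4, 141 and 104 CPM in PDGF-B-labelled gliomas, 75.8, 64.7 and 92.5 CPM in EGFRvIII-labelled gliomas and 21.9 CPM in the culture. Their mean log2 CPM did not separate the glioma groups, at 1.27, 1.33 and 2.66 against 1.37, 1.32 and 1.29, with -0.26 in the culture. Between the glioma groups 0 of the 5 markers was called, with 3 higher and 2 lower in the PDGF-B group (median log2 fold change 0.36). Against the culture 1 of the 5, Aebp1, was called higher in each group, where 9.45% and 9.55% of all genes were called. The part of these cells in the fibrillar collagen values was not tested. The remaining 8 fibrillar collagens were called in no comparison. Of these Col5a3, which had 61.3, 174 and 59.4 CPM in PDGF-B-labelled gliomas, 16.1, 13.2 and 42.4 CPM in EGFRvIII-labelled gliomas and 38.2 CPM in the culture, is given after its values were seen: the glioma groups did not overlap, and the difference of 2.04 missed the threshold (limma adjusted p = 0.112).

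Collagen VI forms beaded filaments beside cells. Its first chain, Col6a1, had 1.69, 0.97 and 8.15 CPM in PDGF-B-labelled gliomas, 1.78, 2.27 and 3.68 CPM in EGFRvIII-labelled gliomas and 9.78 CPM in the culture, and was called nowhere. Col6a3, the longest chain, had 1.22, 1.73 and 0.84 CPM in PDGF-B-labelled gliomas, 3.76, 7.47 and 17.5 CPM in EGFRvIII-labelled gliomas and 0.55 CPM in the culture. The PDGF-B group lay below the EGFRvIII group without overlap, short of the threshold (log2 fold change -2.65 ± 0.59, SE, limma adjusted p = 0.0616), and EGFRvIII against the culture passed it (3.71 ± 0.84, adjusted p = 0.0354). That call was lost without replicate 1 labelled PDGF-B or replicate 2 or 3 labelled EGFRvIII, with log2(CPM + 1), quantile normalization and voom, and its limma adjusted p ranged from 0.0254 to 0.143 over the alternatives. The other 6 genes of this class were called in no comparison. None of the 4 transmembrane collagens and multiplexins was called by limma or voom, and 1 of them reached an unadjusted p under 0.05 in each comparison. The most abundant of them, Col18a1, is the source of the endostatin fragment. It had 9.06, 10.9 and 106 CPM in PDGF-B-labelled gliomas, 35.8, 85.9 and 35.7 CPM in EGFRvIII-labelled gliomas and 93 CPM in the culture, so that replicate 3 labelled PDGF-B alone reached the culture's level within its group. Without that replicate Col18a1 was called lower in the PDGF-B group than in the EGFRvIII group (-2.26 ± 0.42, limma adjusted p = 0.0253) and than in the culture (-3.22 ± 0.56, limma adjusted p = 0.0135).

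Laminin chains varied widely within the groups, and 0 of the 9 was called in any of the 3 comparisons by limma. An unadjusted p under 0.05 was reached by 2 chains between the glioma groups, 4 for PDGF-B and 3 for EGFRvIII against the culture, and limma on voom-weighted reads called 0, 1 and 1. Lamc1, the gamma chain of most laminins, led the class with 136, 175 and 158 CPM in PDGF-B-labelled gliomas, 175, 72.8 and 98.3 CPM in EGFRvIII-labelled gliomas and 180.2 CPM in the culture. Its groups overlapped (log2 fold change between glioma groups 0.53 ± 0.32, SE, limma adjusted p = 0.452). Lama4, an alpha chain of vessel laminins, had 86.8, 44.9 and 73.3 CPM in PDGF-B-labelled gliomas, 57.9, 58.4 and 89.6 CPM in EGFRvIII-labelled gliomas and 26 CPM in the culture. It was the main alpha chain of every glioma, with 95.3%, 93.5% and 71.2% of the summed alpha chain CPM per kb in PDGF-B-labelled gliomas and 82.7%, 83.9% and 74.0% in EGFRvIII-labelled gliomas, against 17.8% in the culture. 

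The partner chains of Lamc1 set replicate 3 labelled PDGF-B apart. Lama5 had 2.01, 2.24 and 19.1 CPM in PDGF-B-labelled gliomas, 2.72, 2.54 and 10.7 CPM in EGFRvIII-labelled gliomas and 89.4 CPM in the culture, where it was the leading alpha chain. Lamb1 had 1.57, 1.03 and 18.9 CPM in PDGF-B-labelled gliomas, 1.86, 1.08 and 2.45 CPM in EGFRvIII-labelled gliomas and 9.78 CPM in the culture. Lamb2, the beta chain of adult vessel laminins, had 1.08, 1.36 and 10.4 CPM in PDGF-B-labelled gliomas, 8.29, 24.4 and 17.9 CPM in EGFRvIII-labelled gliomas and 35 CPM in the culture. In replicates 1 and 2 labelled PDGF-B the beta chains were nearly missing beside Lamc1: per kilobase Lamc1 exceeded the summed beta chains by 40.1 and 51.0 times there and by 5.17 times in replicate 3, against 13.3, 2.11 and 3.63 times in the EGFRvIII-labelled gliomas and 3.22 times in the culture. Replicate 3 labelled PDGF-B stood apart in several of these same chains. Leaving it out also raised the calls over all genes between the glioma groups from 583 to 1282, so the calls that follow are no separate support. Without replicate 3 labelled PDGF-B, the PDGF-B group was called lower than the EGFRvIII group in Lamb2 (-3.60 ± 0.50, limma adjusted p = 0.00855) and Lama3 (-5.07 ± 0.66, limma adjusted p = 0.00661). It was then also called lower than the culture in Lama1, Lama3, Lama5, Lamb1 and Lamb2, of which Lama5 differed most (-5.36 ± 0.87, limma adjusted p = 0.011). With all libraries, the limma adjusted p of these chains against the culture ran from 0.0509 for Lama1 to 0.506 for Lamb1, and Lama1 was called lower than the culture with log2(CPM + 1), log2(CPM + 0.25), quantile normalization and voom. The beta and alpha chains named here besides Lamc1 are its partners in trimers.

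**Figure D4:**
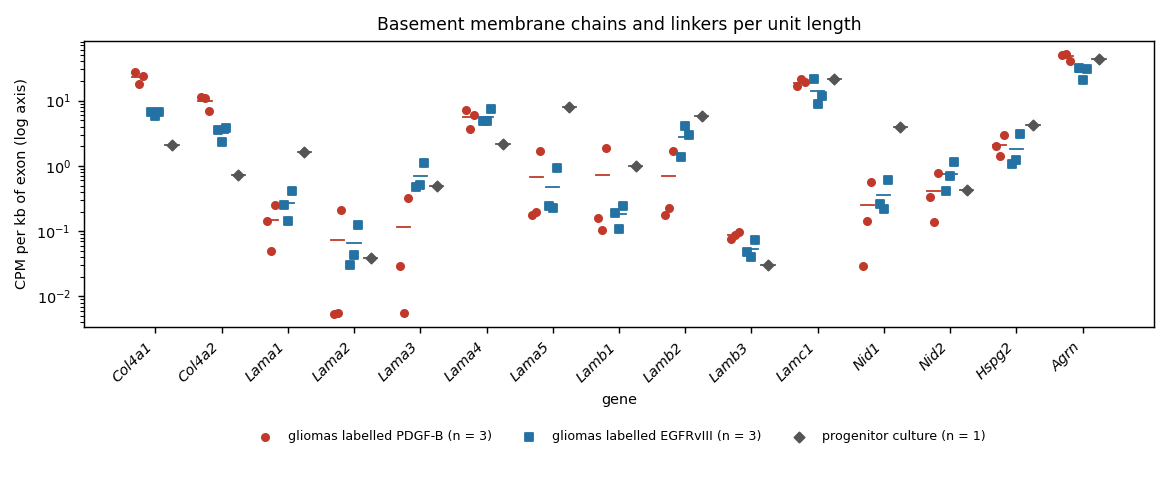
CPM per kb of exon on a log axis is shown for collagen IV, the laminin chains and their linkers, with a point per library and a short line at each group's mean. Col4a1 and Col4a2 fall into 3 separate levels, the groups overlap for Lamc1, and Lama5, Lamb2 and Nid1 show the culture at the top. The points of the group labelled PDGF-B spread widely for Lama5, Lamb1 and Lamb2.

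The linkers of the basement membrane were called in no comparison by limma with all libraries. Nid1, which joins laminin to collagen IV, had 0.204, 1.0 and 3.96 CPM in PDGF-B-labelled gliomas, 1.81, 1.49 and 4.22 CPM in EGFRvIII-labelled gliomas and 27.5 CPM in the culture (limma adjusted p against the culture = 0.0724 for PDGF-B and 0.159 for EGFRvIII). Every glioma was below the culture. In the PDGF-B group Nid1 was called lower than the culture with log2(CPM + 1), with voom and without replicate 3 (-5.71 ± 0.98, limma adjusted p = 0.013). Its relative Nid2 had 1.75, 0.728 and 4.04 CPM in PDGF-B-labelled gliomas, 2.15, 3.65 and 6.02 CPM in EGFRvIII-labelled gliomas and 2.2 CPM in the culture, with overlap between the glioma groups. Perlecan (Hspg2) had 28.5, 20.5 and 41.9 CPM in PDGF-B-labelled gliomas, 15.4, 17.7 and 44.3 CPM in EGFRvIII-labelled gliomas and 61.5 CPM in the culture, and again the glioma groups overlapped. Agrn, the proteoglycan agrin, was abundant at 462, 485 and 379 CPM in PDGF-B-labelled gliomas, 290.1, 191 and 284 CPM in EGFRvIII-labelled gliomas and 408 CPM in the culture. The PDGF-B group lay above the EGFRvIII group without overlap, a difference of 0.81 ± 0.23 that did not pass (log2, SE, limma adjusted p = 0.126). These 4 linkers are described after their values were seen.

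Sparc and Fn1, a pair of soluble matrix proteins, had their highest values among the EGFRvIII-labelled gliomas. Sparc had 108, 128 and 236 CPM in PDGF-B-labelled gliomas, 192, 1611 and 512 CPM in EGFRvIII-labelled gliomas and 504 CPM in the culture. The glioma groups overlapped, replicate 2 labelled EGFRvIII was far above the rest, and no comparison passed (limma adjusted p = 0.252 between glioma groups). Fn1, the fibronectin that integrins bind, had 111, 191 and 150.2 CPM in PDGF-B-labelled gliomas, 376, 1580.1 and 762 CPM in EGFRvIII-labelled gliomas and 77.9 CPM in the culture. Its groups did not overlap, and the difference of -2.39 ± 0.50 between them lay at the threshold (log2, SE, limma adjusted p = 0.0528), and passed it with log2(CPM + 1), log2(CPM + 0.25), quantile normalization or voom weights. EGFRvIII against the culture was called (3.30 ± 0.70, limma adjusted p = 0.0282), and PDGF-B against the culture was not (0.91 ± 0.70, adjusted p = 0.432). Without replicate 3 labelled EGFRvIII the call against the culture was lost, at the upper end of a limma adjusted p that ranged from 0.0124 to 0.0754 over the alternatives.

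Of the 5 membrane-type MMPs, Mmp15 and Mmp16 were called higher in both glioma groups than in the culture, and none was called between the glioma groups. Mmp15 (ENSMUSG00000031790) had 2444, 2090.0 and 1860.4 CPM in PDGF-B-labelled gliomas, 1755, 1714 and 2312 CPM in EGFRvIII-labelled gliomas and 499.6 CPM in the culture. The glioma groups overlapped and all 6 gliomas were above the culture, by 2.08 ± 0.33 for PDGF-B and 1.93 ± 0.33 for EGFRvIII on the log2 scale (SE, limma adjusted p = 0.0101 and 0.0112). Mmp16 had 322, 252 and 221 CPM in PDGF-B-labelled gliomas, 203, 188 and 191 CPM in EGFRvIII-labelled gliomas and 41.3 CPM in the culture, with differences from the culture of 2.66 ± 0.27 and 2.23 ± 0.27 (log2, SE, limma adjusted p = 0.00274 and 0.00282). Both genes held against the culture under every alternative in both groups. Mmp14, the best known membrane-type MMP and an activator of Mmp2, was not called against the culture: it had 59.1, 47.9 and 78.6 CPM in PDGF-B-labelled gliomas, 68.2, 51.9 and 47.1 CPM in EGFRvIII-labelled gliomas and 51.1 CPM in the culture, and was picked for description after its values were seen. Mmp17 and Mmp24 were not called either, and between the glioma groups 0 of the 5 was called by limma or voom (0 at an unadjusted p under 0.05), with log2 fold changes between 0.14 and 0.47.

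Secreted MMPs stayed at or below 40.9 CPM in every library. Of these 9 genes, 0 was called between the glioma groups by limma or voom and 5 reached an unadjusted p under 0.05, with a class median of -1.47. Mmp2, which cuts denatured collagen and collagen IV, had 3.03, 5.97 and 25.1 CPM in PDGF-B-labelled gliomas, 40.9, 37.5 and 14 CPM in EGFRvIII-labelled gliomas and 0.434 CPM in the culture. Replicate 3 labelled PDGF-B reached into the range of the EGFRvIII group, the groups overlapped (-1.84 ± 0.78, log2, SE, limma adjusted p = 0.295), and the EGFRvIII group was called above the culture (5.82 ± 1.11, adjusted p = 0.0187). Mmp12, the macrophage elastase, had 0.204, 0.273 and 3.84 CPM in PDGF-B-labelled gliomas, 5.92, 16.7 and 16 CPM in EGFRvIII-labelled gliomas and no read in the culture. The PDGF-B group lay wholly below the EGFRvIII group, short of the threshold (-4.08 ± 1.03, log2, SE, limma adjusted p = 0.090). Against the culture limit of 3 counts the EGFRvIII group was at least 148-fold higher, which limma called (adjusted p = 0.0191), and the PDGF-B group at least 16.6-fold higher, which it did not (adjusted p = 0.169). The EGFRvIII calls against the culture were lost without replicate 1 or 2 of that group for Mmp2, without replicate 2 or 3 for Mmp12, and with voom for both, with limma adjusted p ranging from 0.00313 to 0.16 and from 0.00114 to 0.116 over the alternatives. Without replicate 3 labelled PDGF-B both Mmp2 (-2.69 ± 0.55, limma adjusted p = 0.0335) and Mmp12 (-5.32 ± 0.55, limma adjusted p = 0.00325) were called lower in that group than in the EGFRvIII group. Mmp8, the neutrophil collagenase, is added after its values were seen: it had 0, 0.0606 and 0.028 CPM in PDGF-B-labelled gliomas, all below the limit that 3 counts give, 0.373, 1.58 and 0.545 CPM in EGFRvIII-labelled gliomas, and no read in the culture (limma adjusted p between glioma groups = 0.0557).

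Fn1, Timp2, Mmp12 and Mmp8 lay lower in PDGF-B-labelled gliomas without overlap, as the myeloid markers did. They were grouped here after their values were seen, so the shared direction is no separate support. In all, 10 of the 83 matrix genes lay lower without overlap, among them Col6a3 and Adamts3, near the 12.6% of all genes. All 16 microglia and macrophage markers lay lower in PDGF-B-labelled gliomas without overlap, and 15 of them were called, with a median log2 fold change of -3.35. Replicate 3 labelled PDGF-B had the highest marker sum of its group and replicate 2 labelled EGFRvIII the highest of all. Sparc, Mmp12 and Timp2 were also highest in these libraries within their groups, Timp2 only narrowly so in the PDGF-B group. Fn1 and Mmp8 were instead highest in replicate 2 of each group. Mmp2 was highest in replicate 3 labelled PDGF-B and replicate 1 labelled EGFRvIII. In the culture the 16 markers summed to 22.5 CPM with 3 at 0, while Timp2 stood at 72.4 CPM, Fn1 at 77.9 CPM and Sparc at 504 CPM there. The part of myeloid RNA in the glioma values of these genes was not tested.

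**Figure D5:**
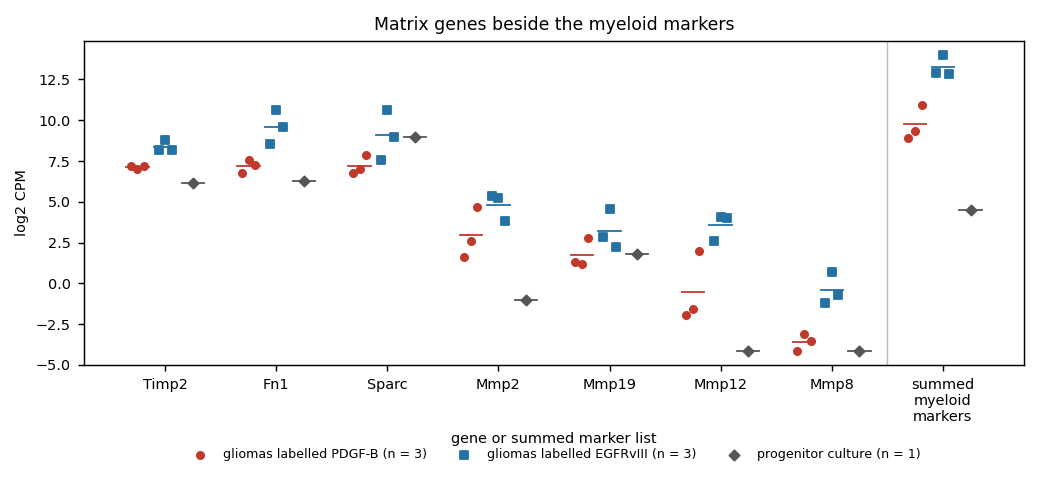
Log2 CPM of 7 matrix genes, as deposited, is set beside the log2 of the summed CPM of 16 microglia and macrophage markers, with a point per library and a short line at each group's mean. The markers and Timp2, Fn1, Mmp12 and Mmp8 all place the PDGF-B-labelled gliomas below those labelled EGFRvIII, whereas Sparc, Mmp2 and Mmp19 overlap. The culture keeps Timp2, Fn1, Sparc and Mmp19 at readable levels where the marker sum is lowest.

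ADAMTS proteases cut proteoglycans of the brain matrix, process procollagens or act on vessel proteins. Between the glioma groups 0 of the 16 was called by limma or voom, and 5 reached an unadjusted p under 0.05. Adamts1, a proteoglycan-cutting enzyme, led the class with 158, 177 and 142 CPM in PDGF-B-labelled gliomas, 199, 142 and 171 CPM in EGFRvIII-labelled gliomas and 128 CPM in the culture, and the groups overlapped. Adamts5, the aggrecan-cutting enzyme of cartilage, had 22.8, 23.8 and 17.3 CPM in PDGF-B-labelled gliomas, 11.6, 7.41 and 5.81 CPM in EGFRvIII-labelled gliomas and 5.15 CPM in the culture. Its glioma groups were separate with the difference short of the threshold (1.41 ± 0.31, log2, SE, limma adjusted p = 0.0595), and PDGF-B against the culture passed it (2.02 ± 0.44, adjusted p = 0.0328). That call was lost without replicate 1 or 2 labelled PDGF-B, with quantile normalization and with voom, and its limma adjusted p ranged from 0.0293 to 0.101 over the alternatives. 

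Adamts15, a related proteoglycan-cutting enzyme, was higher in both glioma groups than in the culture. It had 8.62, 4.18 and 4.01 CPM in PDGF-B-labelled gliomas, 4.79, 3.26 and 5.56 CPM in EGFRvIII-labelled gliomas and 0.405 CPM in the culture, with log2 differences of 3.52 ± 0.59 and 3.28 ± 0.59 (SE, limma adjusted p = 0.0131 and 0.0153). The EGFRvIII call was lost without replicate 3 of that group, with log2(CPM + 1), quantile normalization and voom, and its limma adjusted p ranged from 0.0147 to 0.0841 over the alternatives. The PDGF-B call of Adamts15 was lost with voom (limma adjusted p = 0.074). Adamts3 and Adamts7 went the other way. Adamts3, a procollagen processing enzyme, had 9.0, 7.33 and 6.5 CPM in PDGF-B-labelled gliomas, 17.8, 9.96 and 24.8 CPM in EGFRvIII-labelled gliomas and 50.001 CPM in the culture. All gliomas were below the culture, and PDGF-B was called (-2.72 ± 0.50, log2, SE, limma adjusted p = 0.0189) where EGFRvIII was not (-1.61 ± 0.50, adjusted p = 0.0984). Adamts7, an enzyme known from vessel and cartilage matrix, had 12.1, 14.4 and 16.6 CPM in PDGF-B-labelled gliomas, 14.3, 11.2 and 17.5 CPM in EGFRvIII-labelled gliomas and 45 CPM in the culture. The glioma groups overlapped and both were called lower than the culture (-1.65 ± 0.35 and -1.67 ± 0.35, log2, SE, limma adjusted p = 0.0283 and 0.0253). The PDGF-B call was lost without replicate 1 or 2 labelled PDGF-B or replicate 1 labelled EGFRvIII, and its limma adjusted p ranged from 0.0211 to 0.0886. The EGFRvIII call was lost without replicate 1 of that group, with a limma adjusted p ranging from 0.0238 to 0.0629.

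Of the 3 TIMPs, Timp3 was higher and Timp2 lower in PDGF-B-labelled gliomas than in EGFRvIII-labelled gliomas, and Timp4 was higher in both than in the culture. Timp3, which binds to the matrix and also inhibits ADAMTS enzymes, had 279, 323 and 91 CPM in PDGF-B-labelled gliomas, 43.5, 21.1 and 25 CPM in EGFRvIII-labelled gliomas and 78.2 CPM in the culture. Replicate 3 labelled PDGF-B was the lowest of its group and still above every EGFRvIII glioma (log2 fold change 2.82 ± 0.51, SE, limma adjusted p = 0.0344), with the culture between the groups and called different from neither. Timp2, a secreted inhibitor that also takes part in activating Mmp2, had 144, 128 and 148 CPM in PDGF-B-labelled gliomas, 292, 436 and 289.7 CPM in EGFRvIII-labelled gliomas and 72.4 CPM in the culture. The 3 groups were separate: PDGF-B against EGFRvIII gave -1.25 ± 0.21 (log2, SE, limma adjusted p = 0.032), EGFRvIII was above the culture by 2.20 ± 0.30 (adjusted p = 0.00467) under every alternative, and PDGF-B against the culture gave 0.95 ± 0.30 (adjusted p = 0.0935). Timp4, the TIMP of heart and brain, had 113, 114 and 108 CPM in PDGF-B-labelled gliomas, 130.3, 98.4 and 102 CPM in EGFRvIII-labelled gliomas and 24.5 CPM in the culture. The glioma groups overlapped, and Timp4 was called above the culture in both groups under every alternative (2.19 ± 0.24 and 2.16 ± 0.24, log2, SE, limma adjusted p = 0.00329 and 0.00218). In the comparison of gliomas, the limma adjusted p ranged from 0.0028 to 0.158 for Timp3 and from 0.0196 to 0.124 for Timp2 over the alternatives. Per kilobase the ratio of Timp2 to Timp3 was 1.08, 0.829 and 3.40 in PDGF-B-labelled gliomas, 14.0, 43.1 and 24.2 in EGFRvIII-labelled gliomas and 1.94 in the culture. 

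Timp3 and Timp4 lie inside Syn3 and Syn2 on the opposite strand, Timp2 shares its strand with Cep295nl, Col20a1 overlaps BX649560.1 on its own strand, and the end of Col9a3 overlaps that of Tcfl5 on the opposite strand. On the opposite strand, Col4a1 overlaps Gm15418 and the start of Col4a2, Adamts7 overlaps Tbc1d2b and Col18a1 overlaps Slc19a1. The sources used here do not say whether counting used strand, so reads of overlapping genes could be split or shared. Gm15418 did not exceed 2.42 CPM in any library and was called higher than the culture in both glioma groups, as Col4a1 was. Tbc1d2b and Slc19a1 were called in no comparison. Syn3 stood at 10.5, 9.65 and 8.74 CPM in PDGF-B-labelled gliomas, 9.57, 4.95 and 9.05 CPM in EGFRvIII-labelled gliomas and 3.1 CPM in the culture, less than Timp3 in every library. Cep295nl and Tcfl5 did not exceed 2.07 CPM in any library, and BX649560.1 had 11.9, 17.6 and 12.8 CPM in PDGF-B-labelled gliomas, 16.1, 7.58 and 8.02 CPM in EGFRvIII-labelled gliomas and 5.95 CPM in the culture. Syn2 had 62.8, 75.4 and 35.1 CPM in PDGF-B-labelled gliomas, 35.4, 24.9 and 34.4 CPM in EGFRvIII-labelled gliomas and 15.8 CPM in the culture, and was called higher in the PDGF-B group than in the culture, as Timp4 was.

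Genes that build or bind the matrix outside these families were read from lists of partners. Their calls between the glioma groups also rested on all 6 libraries, being lost without any 1 glioma other than replicate 3 labelled PDGF-B. In that comparison 4.0% of the enzymes, 5.26% of the receptors and 13.0% of the proteases and inhibitors listed below were called, against 3.35% of all genes. Of 25 measured enzymes that fold, modify or cross-link collagens, 0 was called higher and 1 lower between the glioma groups: Lox, a collagen and elastin cross-linker, had 2.97, 3.51 and 2.66 CPM in PDGF-B-labelled gliomas, 13.6, 12.3 and 10.5 CPM in EGFRvIII-labelled gliomas and 0.376 CPM in the culture (-1.97 ± 0.27, log2, SE, limma adjusted p = 0.0245). Against the culture limma called 9.45% of all genes for the PDGF-B group and 9.55% for the EGFRvIII group. Of the 25 enzymes, 3 were called higher in each group there, near these shares, and none lower by limma or voom. Lox (2.83 and 4.80) and Loxl3 (3.02 and 2.47) were among them for both groups, beside the prolyl hydroxylase P3h2 for PDGF-B (1.30) and the lysyl hydroxylase Plod1 for EGFRvIII (2.31). All of these held under every alternative but P3h2, whose limma adjusted p ranged from 0.0327 to 0.132, and Lox for PDGF-B, which missed the threshold with voom alone (limma adjusted p from 0.0077 to 0.0611). Loxl3 had 47, 54.4 and 33.1 CPM in PDGF-B-labelled gliomas, 36, 26.4 and 28.7 CPM in EGFRvIII-labelled gliomas and 5.37 CPM in the culture.

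Of 19 measured matrix receptors, 1 was called between the glioma groups and it was lower. Itgb5, the beta chain of a vitronectin receptor, had 18.8, 23.6 and 71.9 CPM in PDGF-B-labelled gliomas, 245, 515 and 269 CPM in EGFRvIII-labelled gliomas and 55.3 CPM in the culture (-3.35 ± 0.53, log2, SE, limma adjusted p = 0.0295). The integrin alpha chains Itgav and Itga8 were called higher in the PDGF-B group than in the culture (1.78 ± 0.35 and 2.16 ± 0.48, log2, SE, limma adjusted p = 0.0235 and 0.0341). Itgav was lost without replicate 1 or 2 labelled PDGF-B, and Itga8 without replicate 1 labelled PDGF-B or 1 or 3 labelled EGFRvIII, with quantile normalization or with voom, and limma adjusted p ran from 0.00785 to 0.0782 and from 0.0136 to 0.0979. These 2 calls are 10.5% of the 19, against 9.45% of all genes in that comparison. For EGFRvIII against the culture 0 of the 19 was called by limma, 1 by voom and 9 reached an unadjusted p under 0.05. There limma called 9.55% of all genes, and 23.9% of them reached an unadjusted p under 0.05. Itgav had 1332, 1304 and 816 CPM in PDGF-B-labelled gliomas, 799, 741 and 679 CPM in EGFRvIII-labelled gliomas and 327 CPM in the culture.

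Among 23 measured proteases and inhibitors of other families, 3 were called lower and 0 higher in PDGF-B-labelled gliomas than in EGFRvIII-labelled gliomas. Plau, the urokinase that makes plasmin, had 3.64, 4.39 and 15 CPM in PDGF-B-labelled gliomas, 42, 40.9 and 53.4 CPM in EGFRvIII-labelled gliomas and 1.1 CPM in the culture (-2.84 ± 0.51, log2, SE, limma adjusted p = 0.0349). The lysosomal proteases Ctsb and Ctss, which myeloid cells express strongly, differed by -2.59 ± 0.40 and -3.11 ± 0.62 (log2, SE, limma adjusted p = 0.028 and 0.0453). The Ctss call was also lost with voom, and those of Ctss, Ctsb, Plau, Itgb5 and Lox with the replicate block. Over the alternatives their limma adjusted p between the glioma groups reached 0.176, 0.106, 0.144, 0.127 and 0.0975. Ctss had 70.9, 112 and 339 CPM in PDGF-B-labelled gliomas, 904, 2281 and 849 CPM in EGFRvIII-labelled gliomas and 0.116 CPM in the culture, the same order of groups as the summed myeloid markers, whose part in the values of Ctss, Ctsb, Plau, Itgb5 and Lox was not tested. Against the culture 4 were called higher and 2 lower in the PDGF-B group, and 6 higher and 1 lower in the EGFRvIII group. These are 26.1% and 30.4% of the 23, against 9.45% and 9.55% of all genes. Adamtsl3, an ADAMTS-like protein without protease activity, was higher in both (3.46 and 3.02), and Adam12 in the PDGF-B group (2.09). The Adam12 call was lost with the replicate block alone (limma adjusted p = 0.0509). The tissue plasminogen activator Plat was lower than the culture in both (-1.32 and -1.19, adjusted p = 0.0325 and 0.0453), and Papln in the PDGF-B group (-4.21). Plat kept its calls without replicate 3 labelled PDGF-B and lost them without most other gliomas, with quantile normalization and with voom, with limma adjusted p from 0.011 to 0.106 for PDGF-B and from 0.021 to 0.11 for EGFRvIII, and Papln was lost without replicate 2 labelled PDGF-B or 1 labelled EGFRvIII (0.00717 to 0.0576).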

How the data were processed

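Per the labels' protocols, DsRed-sorted mouse cells gave 7 RNA libraries. STAR, edgeR and the mm10 build are named in the submitters' processing notes without versions, and the way reads were assigned to genes is not stated. The authors deposited, per library, log2 CPM values with a small prior count, per the file headers (logcpm in 6 of the 7 files) and the common lowest value of -4.12. Each file holds the same 17422 Ensembl genes, 17247 of which matched a GENCODE symbol.

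CPM was recovered as 2 to the power of the value less that of the lowest value. Reads were recovered from the size of the smallest step in each library. Between 36.3% and 38.6% of values came out whole within 0.02 reads, so the values behind them are taken as estimated counts with fractions. They gave totals of 32513754 to 39062584 reads, and 3 counts are used as the limit for a gene with no read. Such limits cover counting error only.

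The log2 values were tested with limma 3.58.1 in R 4.3.3 (intensity trend, robust moderation), with Benjamini-Hochberg adjustment over all genes and calls at 0.05. Gliomas were compared in a fit of 6 libraries, and the culture in a fit of 7 in which the lone culture is assumed to vary like the gliomas. A fold change here subtracts group means of the deposited log2 CPM, which understates the change of low genes. P-values measure the spread between these samples. Alternatives were log2(CPM + 1), log2(CPM + 0.25), a mean CPM of at least 1, median ratio scaling, quantile normalization, a replicate block, moderation without the robust step, voom on recovered reads, and leaving out each glioma. Named genes are Col4a1, Col4a2 and Timp2, those called between the glioma groups, the most abundant of each class per kilobase, up to 2 called per class, direction and culture comparison, partner chains of these, and up to 3 called per direction and comparison of each partner list. Others are marked as chosen after their values were seen. Of the genes this rule selects, 1 is not reported here. The matrix genes and all lists were chosen with earlier results of these data known. Levels per kilobase use exon lengths of GENCODE M21, and the promoter letters came from RefSeq on GRCm38.p6, which held windows for 58 of the 83 genes.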

Additional observations from a re-analysis of the deposited data

How the results depend on the processing

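Between the glioma groups, 6 genes higher and 1 lower in PDGF-B-labelled gliomas became 0 and 0 with a replicate block, where 18 of all genes were called against 583 without it. Deviations of same-numbered gliomas correlated at 0.175, -0.036 and -0.080, so the numbers were not taken to pair samples, and not every glioma correlated best with its own number. The count of lower genes was 2 with log2(CPM + 1), log2(CPM + 0.25), quantile normalization and voom. Leaving out 1 glioma gave 0 to 9 higher and 0 to 8 lower genes, and 4 to 1282 of all genes.

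For PDGF-B-labelled gliomas against the culture, 13 genes higher and 2 lower became 8 and 4 with voom, which called 553 of all genes against 1647. The lower count was 4 with log2(CPM + 1) and with the replicate block, and 3 with log2(CPM + 0.25) and quantile normalization. Leaving out 1 glioma gave 10 to 19 higher and 1 to 12 lower genes, and 854 to 2303 of all genes.

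For EGFRvIII-labelled gliomas against the culture, 13 higher and 1 lower became 6 and 2 with voom, which called 721 of all genes against 1663, and quantile normalization also gave 2 lower. Leaving out 1 glioma gave 8 to 15 higher and 0 to 4 lower genes, and 1058 to 2030 of all genes. Among the named genes, the block also ended culture calls of Col4a2, Col6a3 and Mmp2 in the EGFRvIII group, of Col9a2, Col16a1, Papln, P3h2 and Adam12 in the PDGF-B group and of Adamts7 and Plat in both. With it Nid1, Lama1 and Lama5 were called lower in the PDGF-B group, and Lama5 in the EGFRvIII group.

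Of the genes that the naming rule selects, 7 had a difference near 0, called under no alternative, that changed sign. Leaving out 1 glioma gave log2 differences between the glioma groups of -0.22 to 0.020 for Adamts1, -0.112 to 0.435 for Adamts15, -0.15 to 0.17 for Adamts7, -0.045 to 0.158 for Timp4, -0.91 to 0.59 for Col6a1 and -0.16 to 0.62 for Col19a1. Col6a1 gave 0.063 with log2(CPM + 1) and 0.10 with quantile normalization. Sparc in the EGFRvIII group against the culture gave -0.69 to 0.85, and -0.044 with quantile normalization. The cause of these shifts was not tested, and leaving out 1 glioma also lowers the number of libraries. The culture has no replicate, and depth limits genes near 3 counts, such as Mmp8.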

Other observations

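Several genes of collagen folding and cell attachment had a pattern that no test above describes, with high values in the culture and, among the PDGF-B-labelled gliomas, in replicate 3. They were chosen after their values were seen, none was called, and no cause was tested. Serpinh1, the collagen chaperone HSP47, had 0.117, 0.303 and 37.2 CPM in PDGF-B-labelled gliomas, 0.86, 3.92 and 2.7 CPM in EGFRvIII-labelled gliomas and 60.9 CPM in the culture. Fkbp10, another chaperone of procollagen, had 0.177, 0.38 and 14 CPM in PDGF-B-labelled gliomas, 0.61, 0.914 and 1.39 CPM in EGFRvIII-labelled gliomas and 5.07 CPM in the culture. Their limma adjusted p between the glioma groups was 0.862 and 0.951. In replicates 1 and 2 labelled PDGF-B both genes were below 1 CPM, while Col4a1 stood at 208 and 134 CPM in the same libraries.

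A pair of laminin-binding integrins was also highest in the culture and, within the PDGF-B group, in replicate 3. Itga6 had 1.63, 5.73 and 28.4 CPM in PDGF-B-labelled gliomas, 66.3, 46.8 and 51.5 CPM in EGFRvIII-labelled gliomas and 189.7 CPM in the culture. Itga7 had 1.4, 2.7 and 19.9 CPM in PDGF-B-labelled gliomas, 3.87, 22.1 and 11.7 CPM in EGFRvIII-labelled gliomas and 106 CPM in the culture. Their common partner Itgb1 stayed between 355 and 556 CPM in the gliomas, with 612 CPM in the culture.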
